A study of Mus musculus with 194 samples.

Results

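Lhx6, Lhx8, Nkx2-1, Sp8, Sp9, Prox1 and Npas1 encode transcription factors of the interneuron lineages that arise in the ganglionic eminences, the Dlx genes set aside. The 7 genes were chosen by name, and each was read as a locus made of its body in the mouse assembly GRCm38 and 10 kb on either side. They are 7 of 21631 protein-coding loci on chromosomes 1 to 19 and X. Together they held 2987 of 21931733 insertions in the 47 tables of the study.

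Most cortical interneurons are born in the ventral forebrain and migrate into the cortex. Nkx2-1 specifies progenitors of the medial ganglionic eminence and switches on Lhx6 and Lhx8. Lhx6 stays active in parvalbumin and somatostatin interneurons, and Lhx8 is used by cholinergic neurons of the basal forebrain. Sp8 and Sp9 are zinc finger proteins of the lateral and caudal eminences, and Sp9 is also used by interneurons of medial origin. Prox1 marks interneurons of caudal origin and also dentate granule cells. Npas1 is a bHLH-PAS repressor found in interneurons and in part of the pallidum. Calling cards record where a factor or a cofactor has been: a transposase inserts a transposon at TTAA sequences, and with unfused piggyBac, insertions gather at active enhancers and promoters.

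Every animal received adeno-associated virus at postnatal day 0 to 1, and cortex was taken unless stated. Cre-positive and Cre-negative animals of a Syn1-Cre line, whose promoter is active in neurons, gave 6 Syn1Cre and 6 Syn1CreNeg animals. A GFAP-Cre line, whose promoter is active in astrocytes and in some lines in neural progenitors, gave 6 GFAPCre and 6 GFAPCreNeg animals. Both Cre-negative groups were injected as well. The 2 C57bl6J animals received viruses that need no Cre, and 3 BrokenHeart animals were read from DNA by a different transposon and inverse PCR. Whole forebrain of 4 Rbp4Cre animals, a line that marks layer 5 projection neurons, was processed for TRAP. There were also 3 Frontflip_GFAPCre animals, 3 Frontflip_GFAPCreNeg animals, and Syn1Cre animals labelled SP1 at postnatal day 28 (4 animals, Syn1Cre_SP1_P28) or day 10 (3 animals, Syn1Cre_SP1_P10). The labels give no age for the other groups, do not name the transposase, and do not describe the Frontflip or SP1 constructs. A pooled table of N2a cells, a mouse neuroblastoma line, combined several experiments.

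A value here is the number of insertions in a locus per 1000000 insertions of the animal's table, abbreviated IPM. Tables held 443158 to 1364948 insertions in Syn1Cre, 97519 to 556145 in Syn1CreNeg, 600443 to 1505413 in GFAPCre and 208057 to 597230 in GFAPCreNeg. SP1 tables held 86842 to 577609, and 3 insertions in a day 10 animal amount to 31.5 to 34.5 IPM, so single insertions carry weight there. In a Syn1CreNeg animal, 3 insertions amount to 5.39 to 30.8 IPM. The Frontflip_GFAPCreNeg tables held 17607 insertions in all and none in the 7 loci. An insertion seen in several of the 10 pieces of a cortex counted once for each. Syn1Cre animals shared no sequencing pool with any other group, so in comparisons with them the sequencing pool and the group coincide. Syn1Cre replicate 5 stood apart in the summed level of 10 astrocyte genes, at 2026 IPM against 639 to 861.9 in the other Syn1Cre animals; GFAPCre animals lay between 822.4 and 1694. The summed level of 6 inhibitory neuron genes was 557.5 to 728.9 IPM in Syn1Cre, 108.3 to 166.9 in GFAPCre and 93.04 to 246.1 in Syn1CreNeg.

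Sp9 and Lhx6 carried more insertions per table in Syn1Cre cortex than in GFAPCre cortex and than in Cre-negative cortex of the Syn1 line, in every animal. Sp8 values overlapped between these groups, and Lhx8, Nkx2-1, Prox1 and Npas1 held too few insertions to pass the filter on low counts there. Of these 4, Nkx2-1 was also above every Syn1CreNeg animal in all 6 Syn1Cre animals, on few insertions and in shallow Syn1CreNeg tables. In bulk tissue, fewer cells of a type and fewer insertions per cell cannot be told apart.

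The 300-base promoter windows of Sp9 and of the third annotated Lhx6 start are shown because they are windows of those genes that hold TTAA sequences with insertions from Syn1Cre animals. The sequences are from RefSeq, build GRCm38.p6, and run 5′ to 3′ on the strand of the gene, from 250 bases before to 50 bases after the annotated start. Capitals mark TTAA, the transposon's target, and GGGCGG or its reverse complement CCGCCC, the core of the GC box bound by Sp family factors. The Sp9 window lies at chr2:73271676-73271975 on the plus strand and the Lhx6 window at chr2:36104011-36104310 on the minus strand.
Sp9 window 1: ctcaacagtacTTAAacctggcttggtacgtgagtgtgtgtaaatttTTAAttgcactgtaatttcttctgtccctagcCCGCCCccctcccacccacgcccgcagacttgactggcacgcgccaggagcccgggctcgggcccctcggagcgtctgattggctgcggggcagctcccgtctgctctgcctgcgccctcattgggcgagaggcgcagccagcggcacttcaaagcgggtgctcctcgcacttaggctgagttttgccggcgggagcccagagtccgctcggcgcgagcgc
Lhx6 window 3: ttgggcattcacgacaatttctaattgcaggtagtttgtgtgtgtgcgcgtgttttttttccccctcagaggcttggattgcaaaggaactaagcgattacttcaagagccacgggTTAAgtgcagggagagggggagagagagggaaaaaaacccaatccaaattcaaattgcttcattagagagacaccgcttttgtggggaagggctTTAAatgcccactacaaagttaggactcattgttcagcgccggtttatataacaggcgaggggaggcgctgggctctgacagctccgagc
TTAA was found in 52.4% and GGGCGG, on either strand, in 35.7% of 32851 mouse promoter windows of this length. In the Sp9 window, the TTAA at base 48, counted from 1 at the 5′ end, held 3 insertions from 2 Syn1Cre animals. It also held 4 from Syn1Cre_SP1_P28 animals and 1 from Syn1Cre_SP1_P10, and none from GFAPCre or C57bl6J animals. Because the windows were chosen for their Syn1Cre insertions, these counts do not compare the groups. The TTAA at base 12 held 1 Syn1Cre, 2 Syn1Cre_SP1_P28 and 1 Syn1Cre_SP1_P10 insertions, and none from GFAPCre or C57bl6J. In the Lhx6 window, the TTAA at base 211 held 6 insertions from 4 Syn1Cre animals and 2 from Syn1Cre_SP1_P28 animals, with 0 from GFAPCre. It also held 1 each from Syn1CreNeg, GFAPCreNeg, C57bl6J, Syn1Cre_SP1_P10 and N2a, and the Syn1CreNeg tables held 1768674 insertions in all against 5573110 in Syn1Cre. The TTAA at base 117 held none. The windows of the other 2 Lhx6 starts, at chr2:36105359-36105658 and chr2:36104484-36104783, contain no TTAA and so cannot receive an insertion at the target sequence. Each of them holds 1 GGGCGG. The sites used most at the 7 genes, described next, lay outside these windows.

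Lhx6 (chr2:36081950-36105992, minus strand, 24 kb) encodes the LIM homeodomain factor that follows Nkx2-1 in the medial lineage. Its locus shares 7760 bases with the gene Morn5. In the 6 Syn1Cre animals Lhx6 held 26.6, 21.5, 34.7, 30.0, 27.1 and 28.1 IPM. In GFAPCre the values ran from 1.63 to 5.87 with a median of 3.35, and in Syn1CreNeg from 0 to 9.30 with a median of 2.70. All 6 Syn1Cre animals lay above every animal of both groups. The highest Syn1CreNeg value came from 1 insertion. The share of all loci that separate in this way was not counted, here or for Sp9. The means were 28 ± 4.35 (SD, n = 6) in Syn1Cre, 3.31 ± 1.59 in GFAPCre, 3.51 ± 4.06 in Syn1CreNeg and 3.19 ± 2.84 in GFAPCreNeg. The levels in the other 3 groups of these 2 lines rest on 7 to 18 insertions each.

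**Figure D1:**
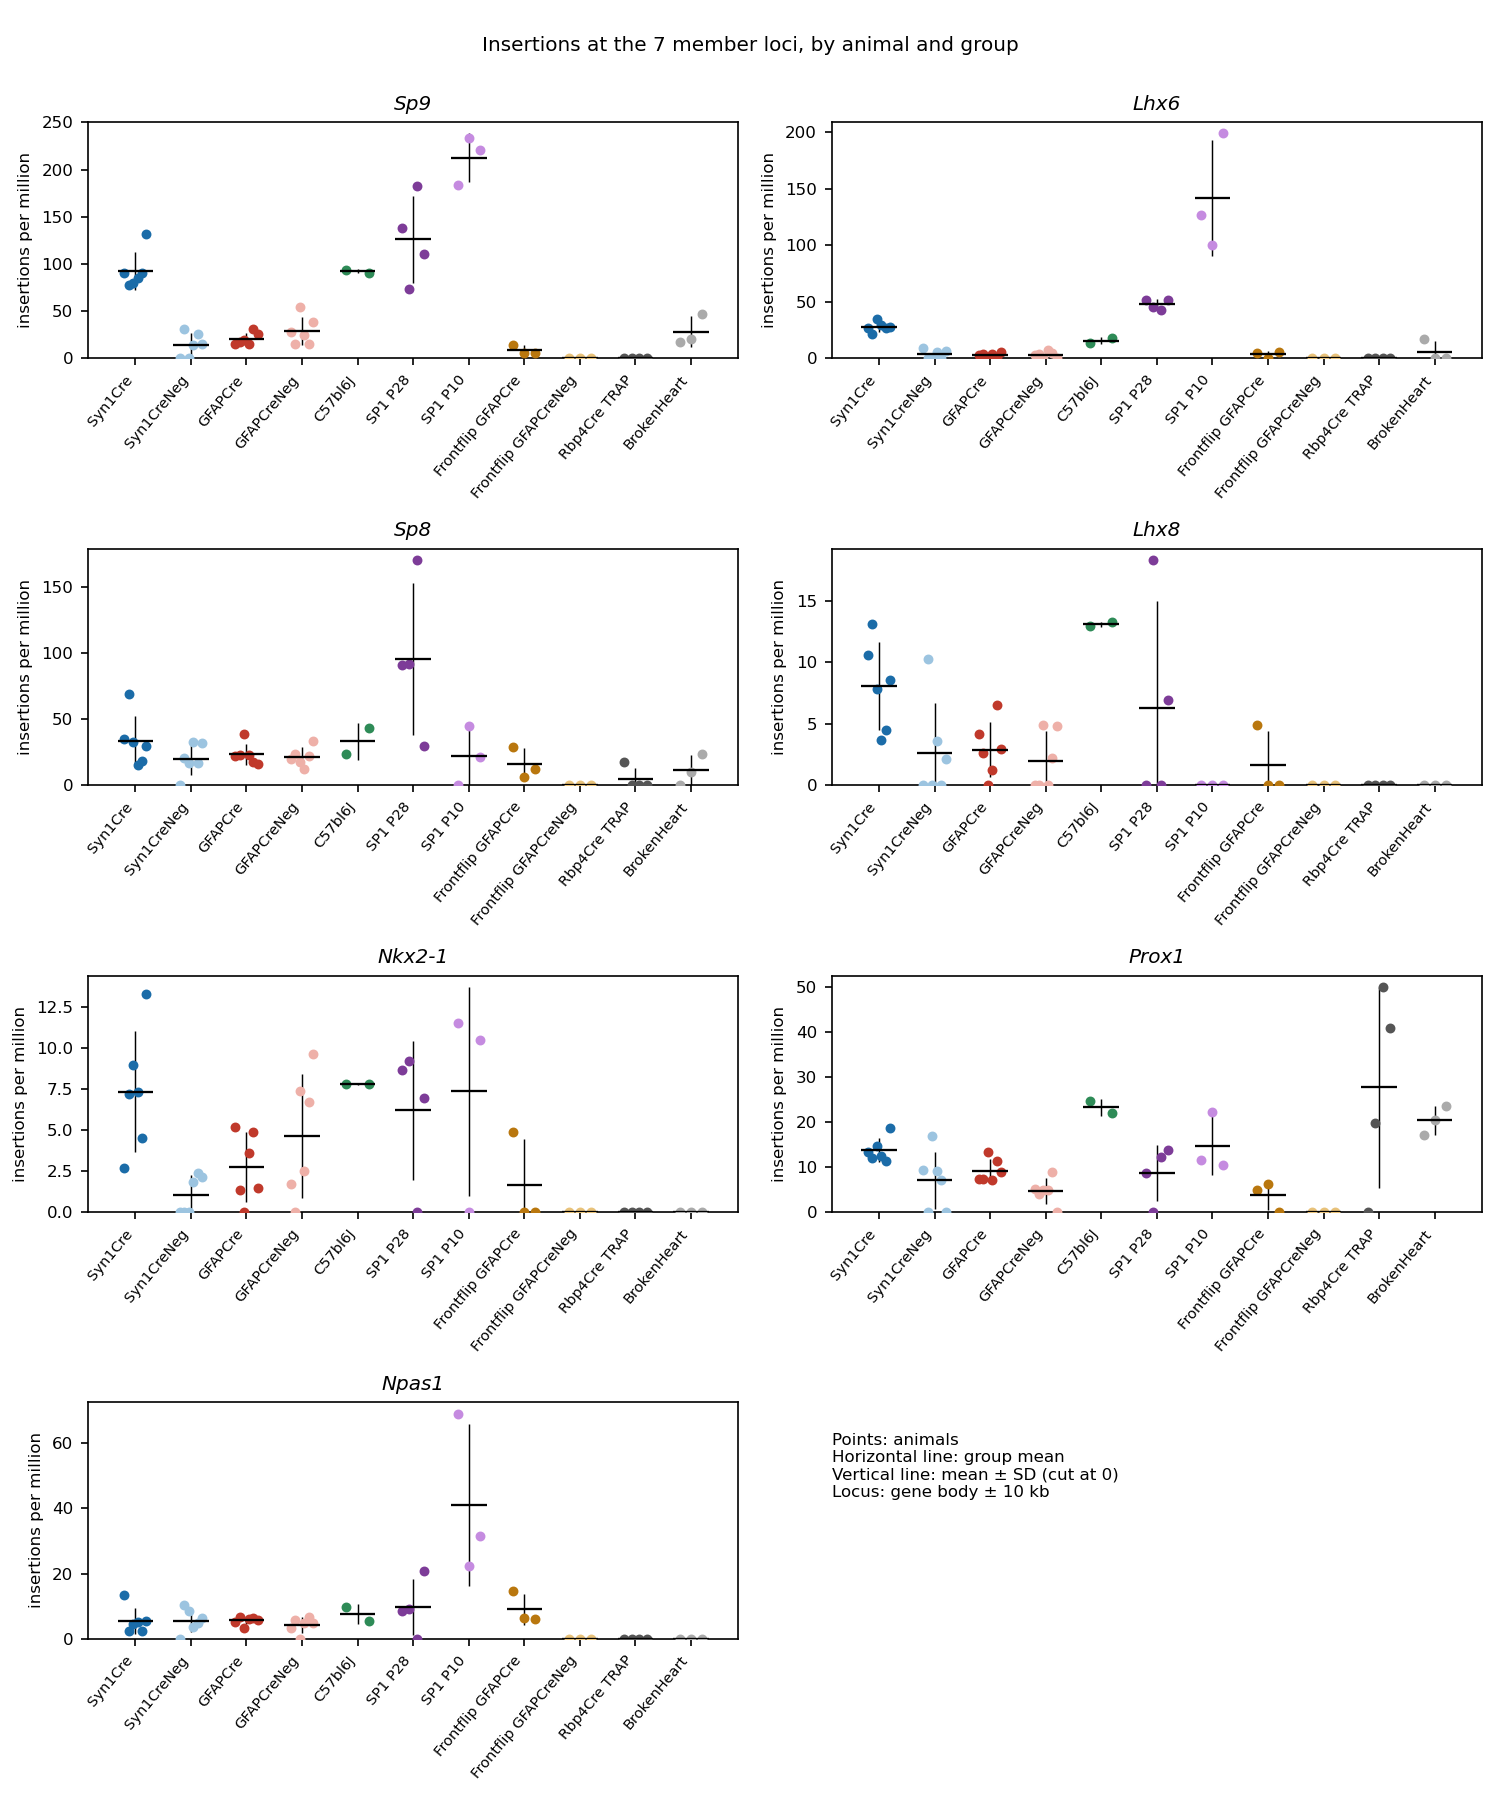
IPM (vertical axis) in each of the 7 loci by group of animals; points are animals, horizontal lines group means and vertical lines 1 SD on either side. Sp9 lies near 92.5 IPM in Syn1Cre and 20.9 in GFAPCre, and Lhx6 rises from 28 in Syn1Cre to 142 in Syn1Cre_SP1_P10.

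Sp9 (chr2:73271926-73275771, plus strand, 3.85 kb) encodes a zinc finger factor of newborn interneurons. Its locus shares 1900 bases with Cir1. Sp9 held 90.3, 77.5, 79.5, 85.7, 90.3 and 132 IPM in the Syn1Cre animals. In GFAPCre the lowest value was 15.5, the median 18.6 and the highest 30.9, and in Syn1CreNeg the lowest was 0, the median 14.6 and the highest 30.8. No Syn1Cre animal overlapped either group. The mean was 92.5 ± 20.0 IPM in Syn1Cre, 20.9 ± 6.34 in GFAPCre, 14.4 ± 12.8 in Syn1CreNeg and 29.5 ± 14.8 in GFAPCreNeg (n = 6 each). Per 10 kb of locus, Sp9 was the densest of the 7 genes in Syn1Cre, at 38.8 IPM and the 99.6th percentile of coding loci. In GFAPCre it held 8.79 IPM per 10 kb, at the 86.4th percentile.

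The comparison of Syn1Cre with GFAPCre asks which loci differ between neuron-directed and astrocyte-directed recording. Of 11553 loci tested, 2.15% passed an adjusted p of 0.05 (edgeR quasi-likelihood test, Benjamini-Hochberg over all loci tested, as in every adjusted p below). Leaving out 1 animal moved these 248 calls to between 128, without Syn1Cre replicate 2, and 835, without Syn1Cre replicate 5. Among the 3 members that passed the count filter, Lhx6 and Sp9 were higher in Syn1Cre and none was lower. Lhx6 passed the filter through its Syn1Cre counts alone, so it was tested only because it was high there. Lhx6 was higher by 2.94 on the log2 scale (SE 0.26, adjusted p = 2.45e-08), and Sp9 by 2.17 (SE 0.19, adjusted p = 2.07e-08). By size of log2 fold change they ranked 2 and 9 among all loci tested. Both calls held in each of the 12 fits that left out 1 animal. Sp8 differed by 0.46 (SE 0.27, adjusted p = 0.395), which did not pass the threshold.

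Against Cre-negative animals of the same line, the background was far larger, with 31.1% of 8613 loci called. Lhx6 was higher in Syn1Cre by 2.75 on the log2 scale (SE 0.40, adjusted p = 2.16e-05) and Sp9 by 2.48 (SE 0.29, adjusted p = 1.48e-06). By size of log2 fold change they ranked 3 and 4 among the loci tested. Both passed the count filter through their Syn1Cre counts alone, so they were tested only because they were high there. Sample labels come in an earlier and a later layout, and do not say whether this marks a library batch. Within the later label layout alone (replicates 4 to 6) the differences were 2.80 for Lhx6 and 2.58 for Sp9, and with the layout as a block 2.80 and 2.62. Within the earlier layout Sp9 differed by 3.09, and Lhx6 fell below the count filter there. Sp8 differed by 0.37 (SE 0.36, adjusted p = 0.465). Over these groups, 7 of 8 astrocyte genes tested were lower in Syn1Cre than in Syn1CreNeg; the part of this difference in the results for Lhx6 and Sp9 was not tested.

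The GFAP line gave another picture for Sp9. Of 9203 loci, 8.15% were called between GFAPCre and GFAPCreNeg (750 loci, or 384 without GFAPCre replicate 2), and neither of the 2 members tested was among them in edgeR, where 0 had an unadjusted p under 0.05, or in DESeq2. Sp9 differed by -0.48 (SE 0.27, adjusted p = 0.285), with GFAPCre values of 15.5 to 30.9 overlapping GFAPCreNeg values of 15.6 to 54.2. Among the animals of both groups that shared a pool, with the pool as a block, it differed by -0.49 (SE 0.28, adjusted p = 0.438). Sp8 differed by 0.16 (SE 0.24, adjusted p = 0.743). The difference between the Cre effects of the lines was tested directly, and 0.692% of 10550 loci passed. These 73 calls became 43 without GFAPCreNeg replicate 1 and 400 without Syn1Cre replicate 5. Sp9 was one of them, at 2.97 (SE 0.44, adjusted p = 3.58e-05), the second largest value of the loci tested. For Lhx6 the difference was 2.77 (SE 0.79, adjusted p = 0.0873) and did not pass; it passed without Syn1Cre replicate 5 (2.78, adjusted p = 0.0423), the animal with the high astrocyte sum. For Sp8 it was 0.22 (SE 0.47, adjusted p = 0.897). Between the Cre-negative groups themselves, where 0.0426% of 7040 loci were called (3 loci, or 337 without GFAPCreNeg replicate 6), Sp9 differed by -0.77 (SE 0.35, adjusted p = 0.383).

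**Figure D2:**
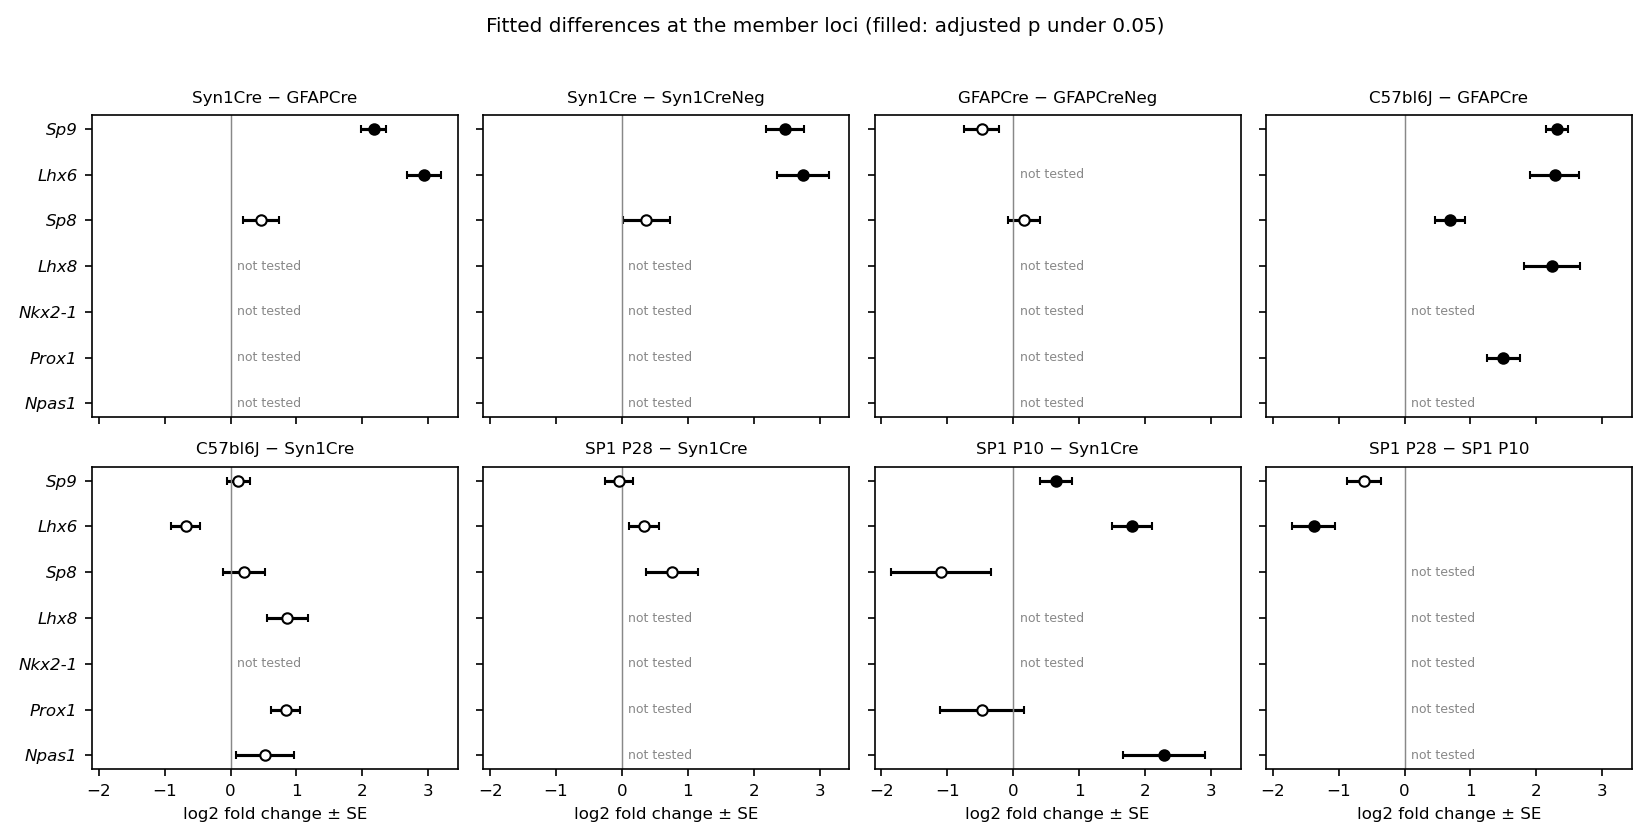
Log2 fold change (horizontal axis) of each member locus in the comparisons named above the panels, with bars of 1 standard error; filled points passed an adjusted p of 0.05 in the edgeR quasi-likelihood test. Sp9 and Lhx6 lie above 2 in both comparisons of Syn1Cre with a control group, and Sp8 lies at 0.46 and 0.37.

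A finer cut of the genome into 10 kb windows placed the Sp9 difference. Between Syn1Cre and GFAPCre 2.77% of 18346 windows were called, and they included 3 windows at Sp9 out of 4 tested in the 7 loci. At chr2:73270001-73280000, which holds the gene, the mean was 51.0 ± 12.6 IPM in Syn1Cre and 9.51 ± 3.47 in GFAPCre, a difference of 2.44 (SE 0.23, adjusted p = 5.29e-07). The window upstream, chr2:73260001-73270000, differed by 2.14 (SE 0.29, adjusted p = 9.63e-05). The window downstream, chr2:73280001-73290000, differed by 1.62 (SE 0.25, adjusted p = 0.000711). The 3 windows together cover the whole Sp9 locus. Against Syn1CreNeg, where 47.6% of 8730 windows were called, 2 member windows were tested and both, at Sp9, were higher, by 2.94 and 2.18.

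**Figure D3:**
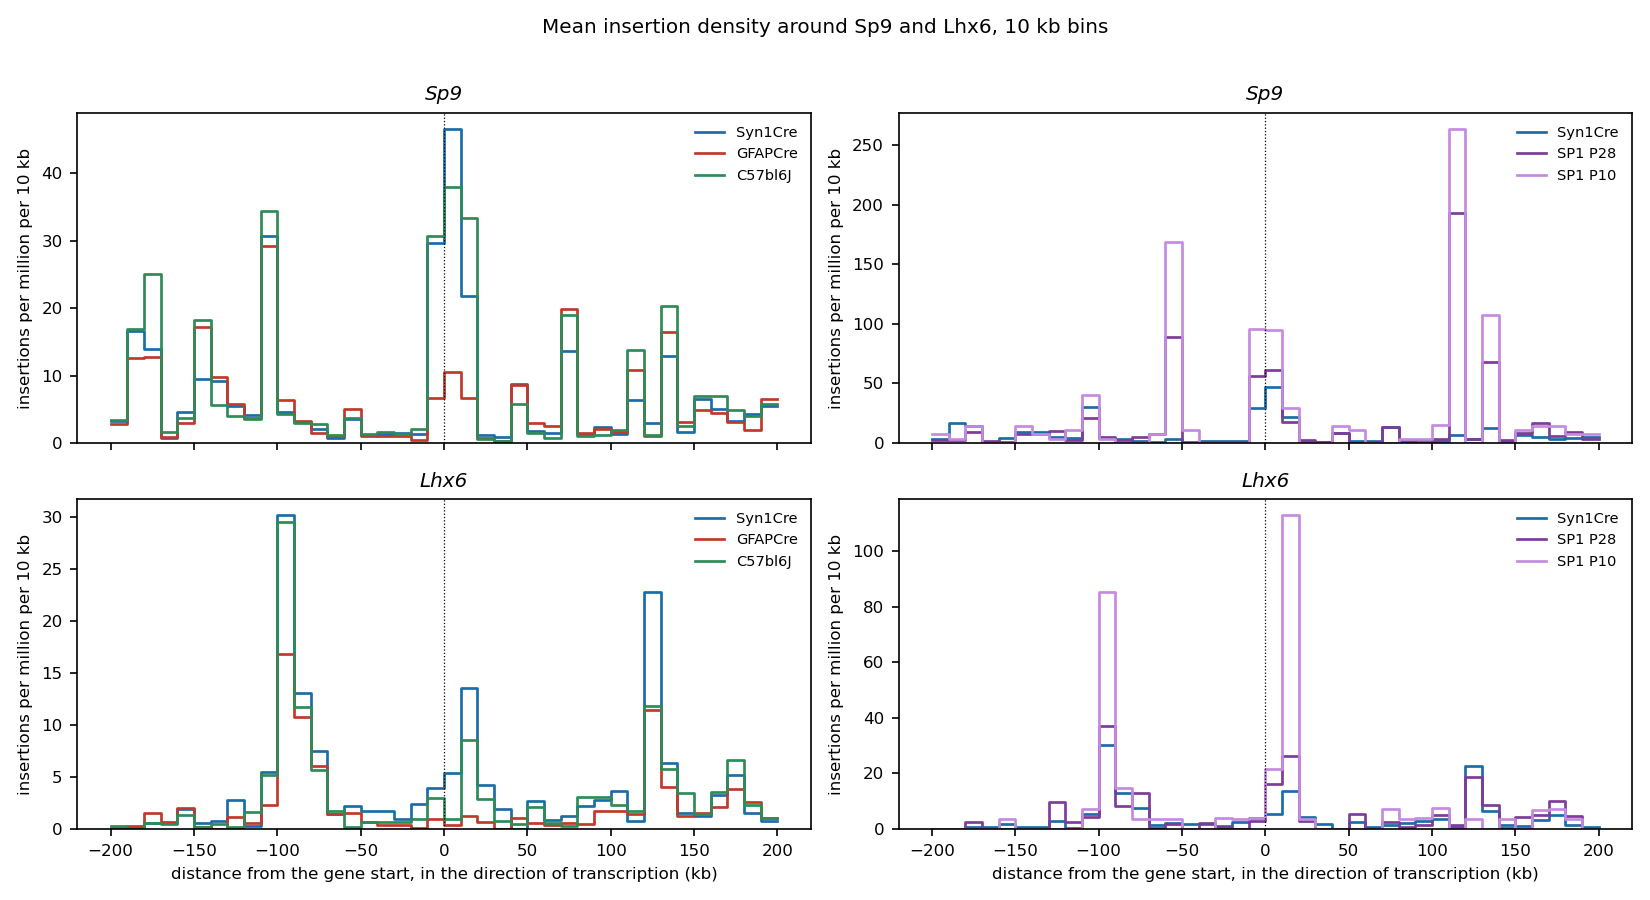
IPM in 10 kb bins (vertical axis) around the starts of Sp9 and Lhx6, by distance from the start in kb (horizontal axis), for Syn1Cre, GFAPCre and C57bl6J on the left and Syn1Cre with both SP1 groups on the right, drawn as group means. The bin from 0 to 10 kb of Sp9 held 46.6 IPM in Syn1Cre and 10.6 in GFAPCre.

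Beyond the Sp9 locus the Syn1Cre and GFAPCre levels came closer together. In the bin 110 to 100 kb upstream of Sp9, over the neighbouring gene Ola1, Syn1Cre held 30.6 and GFAPCre 29.2 IPM. In the bins within 10 kb upstream and within 10 kb downstream of the start, Syn1Cre held 29.7 and 46.6 and GFAPCre 6.65 and 10.6. Inside the locus, 32.1% of the insertions lay upstream, 12.3% in the body and 55.7% downstream in Syn1Cre, and 31.1%, 16.5% and 52.4% of 103 insertions in GFAPCre; the difference of these shares was not tested. The body makes up 16.1% of the length. The site used most in Syn1Cre, chr2:73282087, lies 10161 bases past the start and held 23 insertions from 6 of 6 animals, and 4 from 1 GFAPCre animal. The next, chr2:73266197, lies at -5729 bases from the start and held 21 insertions in 5 Syn1Cre, 5 in 4 GFAPCre and 19 in 2 C57bl6J animals. The leading site thus made up 4.34% of the Sp9 insertions in Syn1Cre. Counting each position once per animal reduced 530 Syn1Cre insertions to 291 and 103 GFAPCre insertions to 86, and the difference was then 1.66 (SE 0.15, adjusted p = 7.07e-09).

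At Lhx6 the insertions lay mostly inside the gene. The body, 54.6% of the locus, held 77.2% of Syn1Cre and 72.2% of GFAPCre insertions. The Syn1Cre sites used most, chr2:36092315 and chr2:36092696, lie 13677 and 13296 bases from the 5′ end and held 11 insertions each, from 5 animals each. Exons and introns were not annotated here. In bins along the gene the Syn1Cre level was 5.43 within 10 kb of the start and 13.6 from 10 to 20 kb, against 0.345 and 1.29 IPM in GFAPCre. Counted once per position and animal, Lhx6 differed between these groups by 2.57 (SE 0.24, adjusted p = 1.95e-08).

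Lhx8 and Nkx2-1, the other members of the medial lineage, carried few insertions. Lhx8 (chr3:154306288-154330560, minus strand, 24.3 kb) held 10.6, 13.1, 7.84, 3.66, 4.51 and 8.59 IPM in Syn1Cre. In GFAPCre it held 0 to 6.50 with a median of 2.80, so the groups overlapped, although the Syn1Cre mean of 8.06 ± 3.59 lay above the GFAPCre mean of 2.91 ± 2.28. Nkx2-1 (chr12:56531935-56536908, minus strand, 4.97 kb) held 2.66, 7.16, 8.96, 7.33, 4.51 and 13.3 IPM in Syn1Cre and 0 to 5.17 in GFAPCre. In Syn1CreNeg 3 of 6 animals had no insertion at Nkx2-1 and the others 1 each. All 6 Syn1Cre animals lay above every Syn1CreNeg animal, with means of 7.31 and 1.05 IPM from 45 and 3 insertions. In a Syn1CreNeg animal 3 insertions amount to 5.39 to 30.8 IPM, so a level near 7.31 gives few insertions or none there. The share of all loci that separate in this way was not counted. Neither gene passed the filter in the comparisons of the Cre lines, and Nkx2-1 passed it in no comparison. Without the filter, Nkx2-1 was higher in Syn1Cre than in Syn1CreNeg by 2.06 (SE 0.69, adjusted p = 0.0275) and Lhx8 differed by 1.66 (SE 0.64, adjusted p = 0.0685). The share of all loci called without the filter is not given here, and with the filter 31.1% were called. Against GFAPCre, Nkx2-1 then differed by 1.47 (SE 0.45, adjusted p = 0.0885) and Lhx8 by 1.36 (SE 0.43, adjusted p = 0.103). In Syn1Cre, 84.4% of the 45 Nkx2-1 insertions lay downstream of the gene, with 8 from 3 animals at chr12:56528090. Per 10 kb, Lhx8 stood at the 34.3rd and Nkx2-1 at the 47.4th percentile of coding loci in Syn1Cre, where the median locus held 3.16 IPM per 10 kb.

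Sp8 (chr12:118846288-118852578, plus strand, 6.29 kb), the close relative of Sp9, showed no such division. It held 34.5, 69.2, 32.5, 15.4, 18.1 and 29.7 IPM in Syn1Cre. GFAPCre values ran from 16.1 to 38.3, with a median of 22.2, and Syn1CreNeg values from 0 to 32.4. The groups overlapped, with Syn1Cre replicate 2 at 69.2 above the other animals of these groups. The means were 33.2 ± 19.3 in Syn1Cre, 23.2 ± 7.86 in GFAPCre, 19.7 in Syn1CreNeg and 21.5 in GFAPCreNeg. Per 10 kb, Sp8 and Sp9 were alike in GFAPCre, at 8.84 and 8.79 IPM, and apart in Syn1Cre, at 12.6 and 38.8. Over the earlier layout alone, Sp8 was higher in Syn1Cre than in GFAPCre by 0.86 (SE 0.23, adjusted p = 0.0126). The site used most at Sp8, chr12:118852312, held 9 insertions in Syn1Cre, 8 in Syn1CreNeg and 8 in GFAPCre, from 5 animals in each of the last 2 groups.

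Prox1 (chr1:190118035-190170827, minus strand, 52.8 kb) encodes the homeodomain factor that marks caudal interneurons. It held 13.3, 11.9, 14.6, 12.5, 11.3 and 18.7 IPM in Syn1Cre and 7.20 to 13.3 in GFAPCre, with a median of 8.06, and the groups overlapped. Its Syn1CreNeg values ran from 0 to 16.8. Npas1 (chr7:16455721-16476822, minus strand, 21.1 kb) held 13.3, 2.39, 4.48, 5.13, 2.26 and 5.47 IPM in Syn1Cre. In GFAPCre its values were 3.33 to 6.64, with the nearly equal mean of 5.59 ± 1.22 against 5.50 ± 4.05. Within the body fell 70.9% of Prox1 and 64.5% of Npas1 insertions in Syn1Cre. Per 10 kb both were below the median coding locus there, at the 35.0th and 28.2nd percentiles. Ordered by level per 10 kb in Syn1Cre, the genes ran Sp9, Sp8, Lhx6, Nkx2-1, Prox1, Lhx8 and Npas1, at 38.8, 12.6, 6.36, 2.93, 1.88, 1.82 and 1.34 IPM.

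In C57bl6J animals, whose viruses need no Cre, 5 members were higher than in GFAPCre, and none passed the test against Syn1Cre. These comparisons share their GFAPCre and Syn1Cre animals with those above. Sp9 held 93.8 and 91.0 IPM, Lhx6 13.6 and 17.8, and Sp8 23.3 and 43.0. Lhx8 held 12.9 and 13.3, Prox1 24.6 and 22.0, Nkx2-1 7.76 and 7.77, and Npas1 9.70 and 5.49. Sp9, Lhx6, Lhx8, Prox1 and Nkx2-1 in both animals lay above every GFAPCre animal. The group has only 2 animals, and the share of all loci that separate in this way was not counted. Nkx2-1 was below the count filter, and without the filter was higher by 1.55 (SE 0.48, adjusted p = 0.0173). Of 13256 loci tested against GFAPCre, 12.5% were called (1657 loci, or 590 and 488 without C57bl6J replicate 1 and 2), and the 5 members that passed the filter were called higher in C57bl6J. Of all calls 56.1% were higher, or 33.6% with scaling by total insertions. Lhx6 and Lhx8 passed the filter through their C57bl6J counts alone, so they were tested only because they were high there. The differences were 2.31 for Sp9 (SE 0.17, adjusted p = 8.04e-11), 2.28 for Lhx6 (SE 0.37, adjusted p = 0.000106) and 2.24 for Lhx8 (SE 0.43, adjusted p = 0.000722). Prox1 differed by 1.5 (SE 0.25, adjusted p = 0.000135) and Sp8 by 0.69 (SE 0.23, adjusted p = 0.0433). Without C57bl6J replicate 2 the calls of Lhx6 (2.00, adjusted p = 0.0524), Lhx8 (2.18, adjusted p = 0.0636) and Sp8 (0.09, adjusted p = 0.931) were lost. The Sp8 call was also lost without GFAPCre replicate 1, 4, 5 or 6 (adjusted p = 0.0914, 0.0753, 0.0764 and 0.0913), and with scaling by totals, DESeq2, distinct positions or at least 2 reads (0.0718, 0.291, 0.0735 and 0.207). Counting distinct positions lowered the Sp9 difference to 1.44.

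Against Syn1Cre, 0.810% of 14445 loci were called (117 loci, or 10 and 2 without C57bl6J replicate 1 and 2) and none of the 6 members tested, of which 3 had an unadjusted p under 0.05 in the edgeR fit; DESeq2 called 0. Higher calls made up 97.4% of all calls, or 68.5% with scaling by total insertions. For Sp9 the difference was 0.12, with a 95% interval of -0.23 to 0.47. Prox1 was 0.84 (SE 0.22, adjusted p = 0.0756), Lhx8 0.86 (SE 0.31, adjusted p = 0.218) and Lhx6 -0.68 (SE 0.22, adjusted p = 0.17). Npas1 was 0.52 (SE 0.44, adjusted p = 0.656) and Sp8 0.21 (SE 0.32, adjusted p = 0.83). Both Prox1 values of C57bl6J lay above the highest Syn1Cre value of 18.7, and both Lhx6 values below the lowest Syn1Cre value of 21.5. How many of all loci separate so was not counted.

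The SP1 animals bear the Syn1Cre genotype and carry SP1 as an added label. They share no sequencing pool with Syn1Cre, their tables are mostly shallower, and the age of the Syn1Cre animals is not given. In comparisons with Syn1Cre, effects of construct, age, pool and depth therefore cannot be told apart. In IPM, Lhx6, Sp9 and Npas1 were higher at day 10 than in Syn1Cre, and Lhx6 was lower at day 28 than at day 10. The calls behind these differences, given below, were lost in some fits for Sp9, for Npas1 and for Lhx6 between the ages. Lhx6 held 51.7, 45.9, 42.5 and 51.9 IPM at day 28 and 127, 100.3 and 199.3 at day 10. All SP1 animals lay above the highest Syn1Cre value of 34.7, and all day 28 animals below all day 10 animals. The share of all loci that separate in this way was not counted, for Lhx6 or for the genes below. These levels are not scaled as in the fits, and the fitted Lhx6 difference at day 28, given below, did not pass. The means were 48.0 ± 4.62 (SD, n = 4) and 142 ± 51.3 (SD, n = 3). Sp9 held 138, 73.4, 182 and 111 at day 28, overlapping Syn1Cre, and 184, 234 and 220 at day 10, above every Syn1Cre animal. Npas1 held 69.1, 22.3 and 31.5 at day 10, from 11 insertions, against at most 13.3 in Syn1Cre. Sp8 held 90.6, 91.8, 170 and 29.4 at day 28 and 0, 44.6 and 21.0 at day 10. Sp8 thus overlapped Syn1Cre at both ages. Lhx8 had no insertion at day 10, where 3 insertions over the group would be 11 IPM, and held 0 to 18.4 at day 28. Nkx2-1 held 0 to 9.18 at day 28 and 0 to 11.5 at day 10, and Prox1 0 to 13.9 and 10.5 to 22.3, each overlapping Syn1Cre.

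The scaling bears on these comparisons. Between day 10 and Syn1Cre 40.7% of 12787 loci were called, and 49.3% of the calls were higher; with scaling by total insertions 76.1% were higher and the median of all loci moved from -0.26 to 0.27. Against that background, 3 of 5 members tested were called and higher. Lhx6 was higher by 1.80 (SE 0.30, adjusted p = 2.4e-05), Npas1 by 2.29 (SE 0.62, adjusted p = 0.00439) and Sp9 by 0.65 (SE 0.24, adjusted p = 0.0338). By size of log2 fold change these 3 ranked 1175, 654 and 3389 among the loci tested. Npas1 passed the count filter through its day 10 counts alone, so it was tested only because it was high there. The Npas1 call was lost without day 10 replicate 1 (1.69, adjusted p = 0.133). The Sp9 call was lost without any one of the 3 day 10 animals (adjusted p = 0.0605, 0.167 and 0.148), without Syn1Cre replicate 2, 3 or 4 (0.0558, 0.0557 and 0.0502), and under DESeq2, without the count filter, with at least 2 reads or over the body alone (0.0691, 0.0866, 0.0947 and 0.832). Sp8 differed by -1.09 (SE 0.76, adjusted p = 0.259) and Prox1 by -0.47 (SE 0.64, adjusted p = 0.604).

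At day 28, 51.5% of 12053 loci were called against Syn1Cre, and none of the 3 members tested, with 0 at an unadjusted p under 0.05 in edgeR and 0 called by DESeq2. Lhx6 differed by 0.34 (SE 0.23, adjusted p = 0.226), Sp9 by -0.04 (SE 0.21, 95% interval -0.45 to 0.36) and Sp8 by 0.76 (SE 0.39, adjusted p = 0.101). Scaling by total insertions, which moved the median of all loci by 0.42 and the share of higher calls from 50.9% to 80.4%, gave 0.81 for Lhx6 (adjusted p = 0.00556), 1.25 for Sp8 (adjusted p = 0.0095) and 0.43 for Sp9 (adjusted p = 0.0764). The sign for Sp9 thus turned with the scaling, while its call did not. Sp8 was also called without Syn1Cre replicate 2 (1.07, adjusted p = 0.015) and without day 28 replicate 4 (1.36, adjusted p = 0.00353). Over the Lhx6 body without flanks, the difference was 1.01 (adjusted p = 0.00189). In 10 kb windows, where 46.5% of 16991 were called, 1 of 6 member windows tested was called, chr2:36090001-36100000 inside Lhx6. It held 26.4 ± 6.47 IPM at day 28 and 11.3 ± 3.17 in Syn1Cre, a difference of 1.23 (SE 0.33, adjusted p = 0.0046). The single site chr2:36092022, described below, held 13 of the 32 day 28 insertions in this window. With each position counted once per animal, no member window was called at day 28.

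Directly compared, the SP1 ages differed at 11.2% of 3460 loci, of which 66.7% were higher at day 28, or 44.6% with scaling by total insertions. Lhx6 was lower at day 28 than at day 10 by -1.38 (SE 0.33, adjusted p = 0.00989), and Sp9 differed by -0.62 (SE 0.26, adjusted p = 0.115). Over the animals of both ages that shared a sequencing pool, Lhx6 differed by -1.36 (adjusted p = 0.0345). Without day 10 replicate 3, the animal at 199.3 IPM, the difference was -1.08 (adjusted p = 0.189) and the call was lost; calls over all loci then fell from 387 to 7. DESeq2 gave no adjusted p for Lhx6, and with distinct positions it fell below the count filter. Sp8, below the filter here, was called without it, higher at day 28 by 1.91 (SE 0.50, adjusted p = 0.0404).

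A single position carried much of Lhx6 in the SP1 animals. Site chr2:36092022, 13970 bases into the gene from its 5′ end, held 6 of 11, 2 of 9 and 7 of 19 Lhx6 insertions in the day 10 animals. At day 28 it held 3 of 12, 0 of 5, 1 of 7 and 9 of 30. In Syn1Cre it held 1, 2, 1, 1, 0 and 1 of 158 insertions in all, and GFAPCre had 1. The site thus made up 38.5% of the Lhx6 insertions at day 10, 24.1% at day 28 and 3.8% in Syn1Cre. When it was left out, an alternative chosen after its counts were seen, the Lhx6 means were 26.9 ± 4.79 in Syn1Cre, 39.4 ± 4.49 at day 28 and 87.2 ± 35.1 at day 10. The difference from Syn1Cre at day 10 was then 1.16 (SE 0.35, adjusted p = 0.0103), and at day 28 0.01 (SE 0.25, adjusted p = 0.998). Every day 10 animal still lay above every Syn1Cre animal, and the share of all loci that separate so was not counted. Between the SP1 ages, Lhx6 without this site fell below the count filter, and with no filter the difference was -1.08 (SE 0.40, adjusted p = 0.175), so the call between ages was lost.

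A second position, chr2:36105806, is 186 bases inside the 5′ end of Lhx6 and 148 bases upstream of the first promoter window. At day 28 it held 2, 2, 3 and 5 insertions, in all 4 animals and 22.2% of the locus; at day 10 it held 1, 0 and 2, in Syn1Cre 2 from 1 animal, and in GFAPCre 0. Within 1 kb of the 5′ end lay 13 of 54 Lhx6 insertions at day 28 and 4 of 158 in Syn1Cre. The body share was 94.4% at day 28 and 94.9% at day 10, against 77.2% in Syn1Cre. The window beside this second site, which holds 1 GGGCGG and no TTAA, reads as follows, from chr2:36105359-36105658 on the minus strand, with the GGGCGG in capitals; it is shown for its distance to the site and no binding was measured.
Lhx6 window 1: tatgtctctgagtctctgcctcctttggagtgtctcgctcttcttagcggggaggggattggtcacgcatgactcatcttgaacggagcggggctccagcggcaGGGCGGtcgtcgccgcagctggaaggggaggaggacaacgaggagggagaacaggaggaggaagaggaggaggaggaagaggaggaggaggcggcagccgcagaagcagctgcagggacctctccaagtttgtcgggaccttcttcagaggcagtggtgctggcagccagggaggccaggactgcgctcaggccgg

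**Figure D4:**
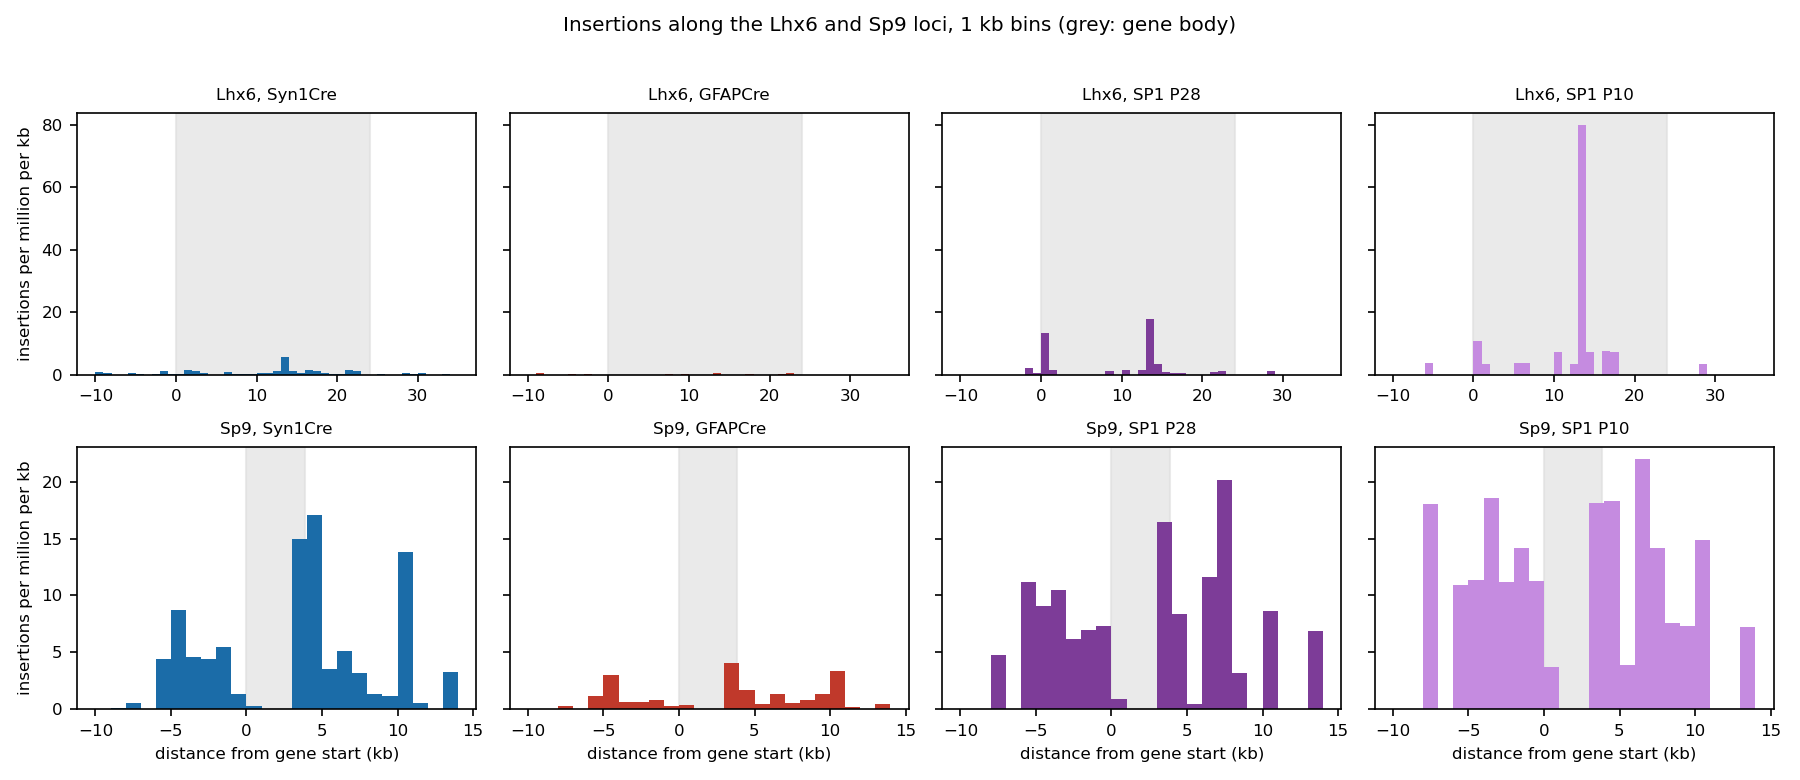
Mean IPM in 1 kb bins (vertical axis) along the Lhx6 and Sp9 loci by distance from the start in kb (horizontal axis), for Syn1Cre, GFAPCre and both SP1 groups, with the gene body in grey. The Lhx6 position 13970 bases from the start held 13 insertions at day 28 and 15 at day 10, against 6 in the deeper Syn1Cre tables.

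In the remaining groups depth limits what can be said. Rbp4Cre TRAP libraries held 171833 insertions in all, of which 5 lay in the 7 loci, 4 of them at Prox1 and 1 at Sp8. Sp9 and Lhx6 had none in the 4 animals. Against Syn1Cre, 2.11% of 10693 loci were called, and Sp9 alone of the 4 members tested was called, and lower (adjusted p = 0.000787). Of all calls 9.29% were higher in the TRAP tables, or 42.6% with scaling by total insertions. Set against a floor of 3 insertions over the group, 17.5 IPM, the Syn1Cre mean was at least 5.3-fold higher at Sp9 and at least 1.6-fold higher at Lhx6 (adjusted p = 0.0681). Lhx6 was called without Syn1Cre replicate 5 (adjusted p = 0.0361). Prox1 held 0, 19.9, 49.9 and 41.0 IPM there and differed by 0.47 (SE 0.76, adjusted p = 0.822). Of the 6 inhibitory neuron genes, Gad1, Slc32a1, Dlx2 and Dlx5 were at 0 in the TRAP tables. The summed level of all 6 was 0 to 81.94 IPM there, against 557.5 to 728.9 in Syn1Cre. That of 8 projection neuron genes was 3105 to 4097 IPM against 1982 to 2508 in Syn1Cre.

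Frontflip_GFAPCre animals held 25 member insertions. Their Sp9 values were 14.6, 6.23 and 6.12 IPM, against 15.5 to 30.9 in GFAPCre. Each Frontflip value was thus below the lowest GFAPCre value, but these values rest on 3, 1 and 1 insertions. In a Frontflip_GFAPCre animal, 3 insertions amount to 14.6 to 18.7 IPM, so the separation rests on single insertions. The share of all loci that separate in this way was not counted. The difference was -1.0 (SE 0.60, adjusted p = 0.491) and that of Sp8 -0.37 (SE 0.50, adjusted p = 0.828); neither had an unadjusted p under 0.05 in edgeR or was called by DESeq2. Of 10526 loci 1.75% were called, 85.9% of them higher, or 75.5% with scaling by total insertions. BrokenHeart tables held 12 member insertions, with 5 at Sp9, 4 at Prox1, 2 at Sp8 and 1 at Lhx6, and no member passed the filter against C57bl6J, where 39.9% of 1879 loci were called. Sp9 held 17.2, 20.4 and 47.1 IPM in BrokenHeart and Prox1 17.2, 20.4 and 23.5. These values rest on 1 or 2 insertions each, and the 2 assays differ in molecule, primers and transposon.

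The N2a table was a single pool of 806653 insertions. Sp9 held 80 insertions, or 99.2 IPM with an exact 95% Poisson interval of 78.6 to 123, covering counting error only. Npas1 held 12, or 14.9 (7.69 to 26.0), above the highest Syn1Cre value of 13.3, which lies within that interval, and the highest GFAPCre value of 6.64, which does not. Lhx6 held 9, or 11.2 (5.10 to 21.2). Nkx2-1 and Sp8 held none, where 3 insertions would be 3.72 IPM. At Sp9, 19 of the 80 lay at chr2:73266197, the site used second most in Syn1Cre. With 1 table there is no replicate check.

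A further 30 genes of the interneuron programme, from the Dlx genes to GABA synthesis, peptides and migration receptors, were counted from a list chosen with earlier results known. Between Syn1Cre and GFAPCre 14 of the 24 tested were higher and 1, Etv1, was lower, beside 1.19% and 0.961% of all loci tested, with a median of 0.72 against 0. The lowest was the migration receptor Cxcr4 at -0.70 (SE 0.28, adjusted p = 0.199). Against Syn1CreNeg 13 of 21 were higher and 2 lower, beside 13.6% and 17.5% of all loci, with a median of 1.13 against 0.02. Somatostatin, Sst, led at 2.89 (SE 0.37, adjusted p = 4.42e-06). The Lhx6 difference there, 2.75, lay just below that of Sst. Between GFAPCre and GFAPCreNeg none of 17 was higher and 1 was lower, beside 2.18% and 5.97%. In the test of the Cre effects against each other 12 of 22 were higher, beside 0.455% of all loci, led by Sst at 3.53 (SE 0.59, adjusted p = 0.000293).

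In the SP1 animals a large share of all loci was called, and the counts of the list are a description beside it. At day 28, 3 of 25 genes were higher than in Syn1Cre and 9 lower, beside 26.2% and 25.3% of all loci, from Gad1, which makes GABA, at 1.01 (SE 0.19, adjusted p = 9.04e-05) to the receptor Erbb4 at -1.43 (SE 0.17, adjusted p = 1.81e-07). At day 10, 7 of 26 were higher and 6 lower, beside 20.1% and 20.6%, with the vesicular GABA transporter Slc32a1 highest at 1.61 (SE 0.38, adjusted p = 0.00156). The medians were -0.17 and -0.15, against -0.06 and -0.26 over all loci. The value of Lhx6 at day 10, 1.80, was above that of Slc32a1. In C57bl6J, 17 of 25 were higher than in GFAPCre and 1 lower, beside 7.01% and 5.49% of all loci, and 2 of 27 were higher than in Syn1Cre, beside 0.789%. The summed level of the inhibitory neuron genes was 850.1 to 1257 IPM at day 28 and 1267 to 1693 at day 10, so both SP1 groups lay above Syn1Cre; the part of these levels in the results for Lhx6 and Sp9 was not tested.

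Across the 11 groups of animals, other loci had profiles close to those of the members. The 2 closest to Sp9 were Myo3a (r = 0.954) and Mad2l2 (0.949), and to Lhx6 Pabpn1l (0.951) and Klf1 (0.948). For Sp8 they were Tbc1d24 (0.957) and Nectin1 (0.953), and for Prox1 Cmah (0.970) and St18 (0.961). For Nkx2-1 they were Glcci1 (0.923) and Mamdc4 (0.900), for Npas1 Mamdc4 (0.949) and Lrrc4b (0.945), and for Lhx8 Tank (0.823) and Grip1 (0.807). These are Pearson correlations of log2 group means plus 1 over 11 points that share libraries and depth, and they describe likeness of level and nothing more.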

How the data were processed

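The deposited tables list 1 insertion a line with its position and its read count, a raw whole-number count made by the authors; the counts analysed here are numbers of lines. Reads were aligned with Bowtie2 or Novoalign to mm10, per the submitters' processing notes, with roles not stated. Insertions at a position in several cortex pieces keep a line each. The 47 tables cover 194 samples in 11 groups of animals and 1 cell line. Gene spans and promoter windows are from RefSeq (GRCm38.p6), and members matched by symbol.

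The members and lists were chosen with earlier results of these data known. The rule for named genes was: every member, the highest and lowest gene of the interneuron list per comparison, and the 2 closest profiles per member. One gene that this rule names is not reported here. Insertions per locus were tested with edgeR 4.0.16 (R 4.3.3; quasi-likelihood, TMM, filterByExpr, only the groups compared) and Benjamini-Hochberg adjustment over all loci, with an adjusted p of 0.05 as threshold. Standard errors are the absolute log2 fold change over the square root of F, and 95% intervals of a difference are normal intervals on it. The code was tested on simulated data. Labels give animals as replicates; nothing more is said of litters. Alternatives were scaling by totals, DESeq2 1.42.0, no filter, distinct positions, bodies without flanks, at least 2 reads, the replicate block, layouts, pools and leaving out each animal.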

Additional observations from a re-analysis of the deposited data

Results flagged for a closer look

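In 6 of 37 sets of values, each of 1 gene in a group of 4 or 6 animals, 1 animal lay far from the others. For normally distributed values chance gives about 1 in 20 such sets. Sets of few insertions, such as Sp8 in Rbp4Cre TRAP and Lhx8 in Syn1CreNeg below, need not follow that rate, so the 6 are not read as an excess. Sp8 held 69.18 IPM in Syn1Cre replicate 2, from 58 insertions, against 15.39 to 34.54 in the other Syn1Cre animals. Sp8 also held 38.31 in GFAPCre replicate 3, from 23 insertions, against 16.14 to 22.81, and 17.54 in Rbp4Cre TRAP replicate 1, from 1 insertion, against 0 in the others. Sp9 held 131.9 in Syn1Cre replicate 6, from 169 insertions, against 77.53 to 90.34. Npas1 held 13.28 in Syn1Cre replicate 1, from 10 insertions, against 2.257 to 5.465. Lhx8 held 10.25 in Syn1CreNeg replicate 2, from 1 insertion, against 0 to 3.596.

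The Cre effect at Sp9 differed between the Syn1 and GFAP lines by 2.97 on the log2 scale, by the test of that difference. In the N2a table, which enters no comparison, Sp9 had 80 insertions, Npas1 12 and Lhx6 9, each above the limit of 3.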

How the results depend on the processing

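Of 643 member log2 fold changes under other settings, 603 kept direction and side of the threshold, 16 passed it only there, 24 lost it and none of the called ones reversed. Counts of called members moved by over 1.5 times as follows, with the leave-one-out counts given apart. Bodies without flanks gave 1 in Syn1Cre against GFAPCre, 0 against Syn1CreNeg, 0 in the test between Cre effects, 1 at day 28 against Syn1Cre, 1 in C57bl6J against GFAPCre and 0 in Rbp4Cre. At least 2 reads gave 1 against Syn1CreNeg, 1 at day 28, 1 at day 10 and 3 in C57bl6J against GFAPCre. Distinct positions gave 1 against Syn1CreNeg and 2 in Rbp4Cre. Members missing from these lower counts fell below the count filter, except Sp8 in C57bl6J with at least 2 reads and Sp9 at day 10. No filter gave 1 at day 28, 2 between SP1 ages, 2 in Rbp4Cre and 1 in BrokenHeart. Scaling by total insertions gave 2 at day 28, DESeq2 gave 0 between SP1 ages, with no adjusted p for Lhx6, the earlier layout gave 1 against Syn1CreNeg, and leaving out the leading Lhx6 site, chosen after seeing the data, gave 0 between SP1 ages, or 1 when no filter was used as well. For windows, distinct positions gave 1 against Syn1CreNeg and 0 at day 28, and scaling by total insertions 2 at day 28. Same-numbered animals correlated at -0.214 to 0.167, and no comparison had every pair above 0.1, so the numbers do not pair animals; the replicate block gave 1 at day 28 and 1 in C57bl6J against Syn1Cre. Leaving out 1 animal gave 2 to 2 in Syn1Cre against GFAPCre and against Syn1CreNeg, 0 to 0 in GFAPCre against GFAPCreNeg, between Cre-negative groups, in C57bl6J against Syn1Cre and in Frontflip, 1 to 2 between Cre effects and in Rbp4Cre, 0 to 1 at day 28, between SP1 ages and in BrokenHeart, 1 to 3 at day 10 and 2 to 5 in C57bl6J against GFAPCre; windows gave 3 to 3, 1 to 3 and 1 to 2. Apart from leaving out 1 animal, counts over all loci moved past 1.5 times thus: Syn1Cre against GFAPCre 248 to 134 (distinct positions) and 1634 (earlier layout); against Syn1CreNeg 2676 to 1769 and 964; GFAPCre against GFAPCreNeg 750 to 471 (distinct positions) and 37 (pool block); between Cre effects 73 to 31 (distinct positions); Cre-negative groups 3 to between 0 and 29; day 28 6204 to 3863 (distinct positions) and 2839 (bodies); day 10 5205 to 2280 (bodies); between SP1 ages 387 to 167 (DESeq2), 212 (distinct positions), 196 (bodies) and 168 (shared pools); C57bl6J against Syn1Cre 117 to between 6 (2 reads) and 1067 (block); against GFAPCre 1657 to 675 (DESeq2) and 928 (distinct positions); Frontflip 184 to between 89 and 307; Rbp4Cre 226 to between 120 and 759; BrokenHeart 749 to between 349 and 1353. Of 77 group levels, 10 moved by more than 1 SD when positions were counted once. Leaving out 1 animal gave 384 to 1115 calls in GFAPCre against GFAPCreNeg, 1 to 337 between Cre-negative groups, 7 to 539 between SP1 ages, 2 to 250 in C57bl6J against Syn1Cre, 488 to 2079 against GFAPCre, 16 to 402 in Frontflip, 89 to 465 in Rbp4Cre, 348 to 896 in BrokenHeart and, of windows, 279 to 1764 in Syn1Cre against GFAPCre. The causes of these shifts were not tested. Depth limits Lhx8, Nkx2-1, Prox1 and Npas1 most.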

Other observations

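The surroundings of Sp9 and Lhx6 held further bins, not used in any test, where the SP1 animals stood apart from Syn1Cre. The bins were picked as the highest within 200 kb of each start in Syn1Cre, GFAPCre or either SP1 group. High SP1 levels were thus part of the choice. In the bin 110 to 120 kb downstream of the Sp9 start, over Gpr155, the mean was 264 IPM at day 10 and 193 at day 28, against 6.42 in Syn1Cre and 10.8 in GFAPCre. In the bin 60 to 50 kb upstream, over Ola1, it was 169 and 88.8 against 3.63 and 5.08. Both bins thus held more than the Sp9 locus's own first 10 kb, which had 95.1 at day 10 and 61.0 at day 28. In the bin 130 to 140 kb downstream, with no coding gene, the values were 107 and 68.3 against 12.9 and 16.5.

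In the bin 70 to 80 kb downstream of Sp9, also over Gpr155, Syn1Cre held 13.6, day 28 held 13.5 and day 10 held 0. Around Lhx6, the bin 120 to 130 kb downstream, over Ttll11, held 22.8 in Syn1Cre, 18.8 at day 28 and 3.71 at day 10. The bin 100 to 90 kb upstream of Lhx6, with no coding gene, held 85.2 at day 10, 37.2 at day 28, 30.2 in Syn1Cre and 16.8 in GFAPCre.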
